A study of Mus musculus with 4 samples.

Results

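Long-term haematopoietic stem cells recovered from mice that had received marrow cells given 0.02 Gy of γ-irradiation are compared here with those from mice given unirradiated cells, with 1 array for each. The measure is the log2 value at 0.02 Gy minus the log2 value at 0 Gy for each gene. It was taken over the 11593 of 23185 named genes whose mean over the 4 arrays of the study reached the median of all gene means, a log2 intensity of 4.06, called the filter level below. Genes whose symbols start with Igh, Igk or Igl, the immunoglobulin genes, made up 100 of these, and results are given with and without them. The remaining 11493 genes include Ighmbp2 and Iglon5, whose symbols begin that way although they are not immunoglobulin genes.

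Marrow cells sorted as c-Kit+ and Sca+ and lacking lineage markers were irradiated at 0, 0.02, 0.1 or 0.5 Gy and then transferred to mice that had themselves been lethally irradiated. After 6 months, long-term stem cells were sorted from the bone marrow as CD150+ cells of the same lineage-negative, c-Kit+, Sca+ kind that lacked Flk2 and CD48. Total RNA was labelled with a whole-transcript Affymetrix kit and hybridised to 1 array per dose. The 0 Gy cells went through the same sort, transplantation and 6 months in a lethally irradiated host, so both arrays carry those steps. Strain, sex and age of the mice are not given in the labels, which also do not say whether several recipients were pooled. The gate names no donor marker, so cells of the host that outlived irradiation cannot be told apart from donor cells. With 1 array a side there is no spread within a dose and no test, and every difference below is a difference between those arrays.

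Long-term haematopoietic stem cells sit at the top of blood formation. Most are out of the cell cycle at any time, and they divide to renew themselves or to give progenitors of all blood lineages. Ionising radiation breaks DNA, and the damage response works in part through p53 and its target Cdkn1a, an inhibitor of cyclin-dependent kinases. Immunoglobulin genes are transcribed in B cells and, at much higher levels, in antibody-secreting plasma cells, many of which live in the bone marrow.

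The 4 arrays had near-equal medians over all probe sets, from 4.01 to 4.07, with the highest at 0.02 Gy. Values below are log2 intensities, listed in the order 0, 0.02, 0.1 and 0.5 Gy unless stated. Of the sorted markers, Kit, the receptor for stem cell factor, had 10.16, 10.57, 10.40 and 10.12, and Slamf1, which encodes CD150, had 7.67, 8.65, 7.16 and 7.77. The excluded marker Cd48 had 4.13, 3.08, 4.11 and 4.13, and Flt3, which encodes Flk2, had 4.46, 4.76, 5.44 and 4.76. Transcripts of lineage markers lay below the filter level on every array except Ly6g at 0.5 Gy, with 4.35: Cd3e had 2.32, 2.27, 2.32 and 2.32, Cd4 had 3.44, 3.44, 3.11 and 3.44, and Itgam had 3.53, 4.05, 3.75 and 3.87. Transcripts for the markers the gate kept were thus well above the filter level at both doses. Of the excluded markers, Flt3 lay above it on all arrays, and Cd48 by little at 0, 0.1 and 0.5 Gy but not at 0.02 Gy. Ly6a, which encodes Sca-1, was not analysed here. In RNA from sorted cells, fewer cells of a type and less RNA per cell cannot be told apart.

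Most genes differed little between the arrays. Without immunoglobulin genes the median difference was 0, 88.0% of genes lay within 1.5-fold, and the standard deviation across genes was 0.418. A further feature of the values is that 1740 of the 11493 genes (15.1%) were exactly equal on both arrays. At least 2-fold higher at 0.02 Gy were 288 of all kept genes (2.48%), and at least 2-fold lower were 180 (1.55%). Without immunoglobulin genes the counts were 215 higher (1.87%) and 174 lower (1.51%). Against the mean of the other 3 arrays in place of the 0 Gy array, the lower count was 100, or 96 without immunoglobulin genes. Genes of the lowest 25% by mean level supplied 92 of the 215 higher and 65 of the 174 lower genes, and genes of the highest 25% supplied 17 and 15.

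The remaining large differences were not all of protein-coding genes. Of the 215 higher genes other than immunoglobulins, 187 were protein-coding, 17 were long non-coding RNAs, 9 were small RNAs and 2 were pseudogenes. For 170 of these 215 the 0.02 Gy array was also the highest of the 4, and for 119 of the 174 lower genes it was the lowest. Over all kept genes that array was the highest for 21.3% and the lowest for 22.6%. These larger shares are partly fixed by choosing genes in which the 0.02 Gy value was high or low to begin with.

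**Figure D1:**
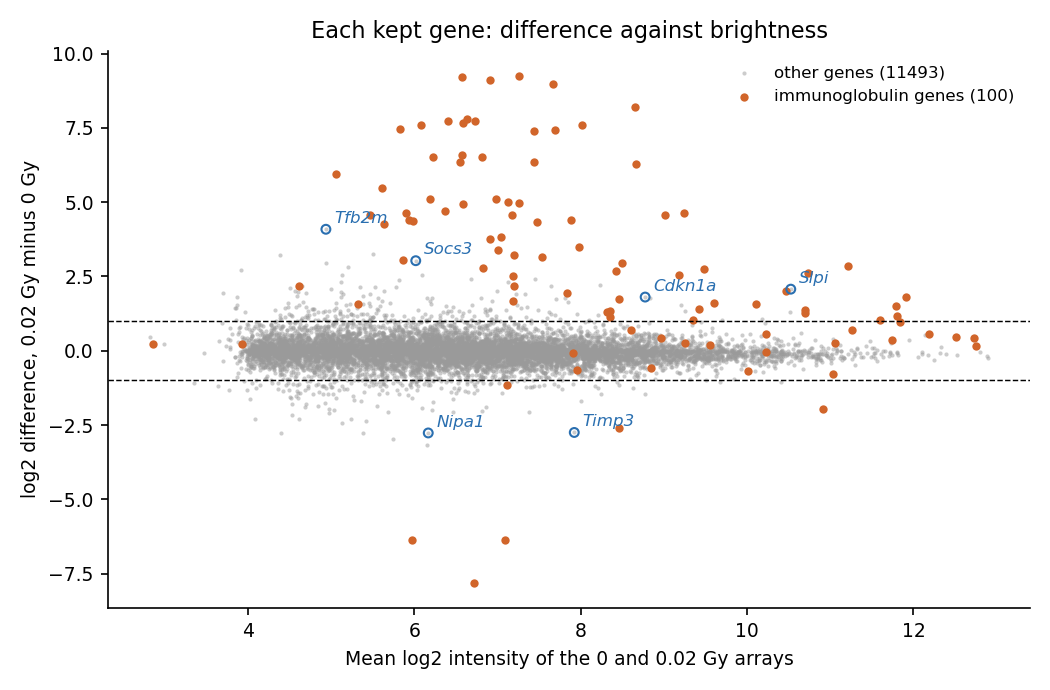
Log2 difference, 0.02 Gy minus 0 Gy, for each kept gene against its mean log2 intensity over the 0 and 0.02 Gy arrays. Each point is 1 gene, with immunoglobulin genes coloured, and the dashed lines mark 2-fold. The points farthest from 0 are mostly immunoglobulin genes, which make up 46 of the 50 largest differences.

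Immunoglobulin variable segments held most of the largest differences. Each B cell joins 1 of many variable segments to make its heavy chain and 1 to make its light chain, so each B cell clone carries segments of its own. The 185 segments measured had median log2 values of 3.18, 7.74, 2.84 and 2.68. A value of at least 8 was reached by 27, 86, 11 and 2 segments on the arrays in the same order. The same direction was seen in both large chain classes: the 88 heavy-chain segments had medians of 3.09 at 0 Gy and 7.03 at 0.02 Gy, and the 94 kappa segments 3.22 and 8.09.

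The segments that were bright differed between the arrays. At a value of at least 8, the 0 and 0.02 Gy arrays shared 21 segments, which is 77.8% of those bright at 0 Gy and 24.4% of those bright at 0.02 Gy. A further 65 were bright at 0.02 Gy and not at 0 Gy, and 6 were bright at 0 Gy and not at 0.02 Gy. Relative to 0 Gy, 105 of the 185 segments stood at least 2-fold up on the 0.02 Gy array and 9 at least 2-fold down, against 1.81% and 1.10% of all named genes. Differences of at least 16-fold were found for 63 segments upward and 5 downward, against 0.280% and 0.0216% of all named genes. Only 89 of the 185 passed the filter on the 4-array mean, and a segment bright on a single array can pass through that array, so the counts over all 185 are given here.

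Single segments differed by up to 9.24 log2 units. Igkv1-110 had 2.64, 11.88, 1.96 and 11.36, so it was bright at 0.02 and 0.5 Gy and dim on the other arrays. Igkv4-55 had 1.98, 11.18, 3.16 and 2.44, and Ighv10-3 had 2.34, 11.47, 2.72 and 2.65. Both were bright at 0.02 Gy alone. In the other direction, Ighv1-58 had 9.77, 1.67, 1.86 and 2.15, Igkv16-104 had 10.62, 2.82, 3.10 and 3.10, and Igkv6-25 had 10.26, 3.91, 2.85 and 2.30. These segments were bright at 0 Gy alone. The dim values lie near the low end of the arrays, so the size of such a difference is uncertain, and segments of 1 family are so alike that a probe set may take signal from a neighbour.

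Constant regions, which every chain of a class shares, were already bright at 0 Gy for several classes. Ighg1, of the IgG1 heavy chain, had 11.04, 12.55, 3.06 and 4.12, and Ighg2b had 11.07, 12.12, 3.73 and 4.20. Ighg2c followed with 11.36, 12.33, 4.21 and 3.75. IgG transcripts were thus bright at 0 and 0.02 Gy and dim at 0.1 and 0.5 Gy. Igha, of IgA, had 11.90, 12.47, 10.91 and 10.55, Ighm, of IgM, had 10.93, 11.20, 11.35 and 7.21, and the kappa constant region Igkc had 12.66, 12.83, 12.29 and 11.70. These differed less between the arrays at 0 and 0.02 Gy, by 0.57, 0.27 and 0.17 log2 units. Ighe and Ighg3 lay between 2.82 and 3.0 on all arrays.

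**Figure D2:**
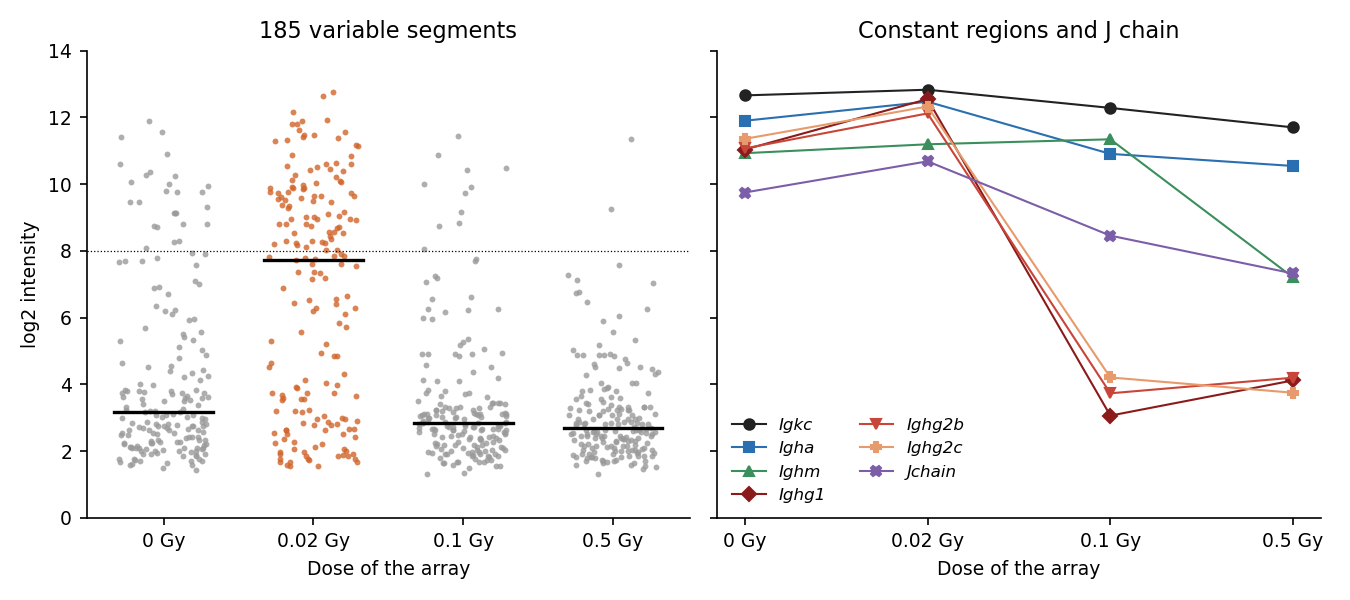
Log2 intensities of immunoglobulin genes on the 4 arrays, by dose in Gy: points on the left are the single variable segments, bars their medians and the dotted line a value of 8, and lines on the right join the values of a constant region or the J chain. The median variable segment lies at 3.18 at 0 Gy and 7.74 at 0.02 Gy, while Igkc stays between 11.70 and 12.83.

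Genes of antibody-secreting cells outside the immunoglobulin loci were also higher at 0.02 Gy. Of 19 measured, 6 were at least 1.5-fold higher and 0 lower. Their median difference was 0.25. In this and the following lists, members counted as higher or lower are those at least 1.5-fold apart from 0 Gy. Over all named genes 4.59% were higher at this level and 4.27% lower, and over kept genes 6.44% and 6.20%, with medians of 0. The 0.02 Gy array was the highest of the 4 for 13 of the 19, against 17.7% of all named genes. Jchain, which joins IgA and IgM into multimers, had 9.75, 10.69, 8.46 and 7.32. Mzb1, a chaperone for immunoglobulin folding, had 6.23, 7.60, 5.24 and 3.78, and Pou2af1, a B-lineage transcriptional coactivator, had 5.98, 7.03, 4.12 and 3.58. All of these were highest at 0.02 Gy, second at 0 Gy and lower at the other doses.

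Transcription factors and surface proteins of plasma cells had the same order of arrays in part. Irf4 had 3.40, 5.02, 3.53 and 3.41, and Prdm1, which encodes Blimp-1, had 4.46, 5.45, 4.06 and 4.46. Tnfrsf17, the survival receptor BCMA, had 3.47, 4.75, 3.38 and 3.36. Only the 0.02 Gy array held Irf4 and Tnfrsf17 above the filter level. Sdc1, which encodes the plasma cell marker CD138, had 4.72, 4.91, 4.35 and 4.28, a difference of 0.18 between 0 and 0.02 Gy. Xbp1, a secretory regulator that other cells also express, had 8.49, 9.06, 8.14 and 8.4. The summed log2 level of the 19 genes was 128.6, 138.1, 123.2 and 121.6, and 3, 1, 3 and 5 of them lay below the filter level. The part of plasma cell RNA in the other differences was not tested.

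Markers of B cells divided into those that were higher and those near background. Of 20 measured, 6 were at least 1.5-fold higher and 0 lower, and only 5 passed the filter. Cd79a, a signalling subunit of the B cell receptor, had 3.80, 6.61, 4.4 and 3.30, and its partner Cd79b had 7.58, 8.62, 7.01 and 6.79. Vpreb3 had 2.92, 5.49, 3.16 and 3.94, and Ly6d, a marker of B-lineage commitment, had 6.38, 8.29, 4.37 and 6.03. All of these were highest at 0.02 Gy. The defining B cell genes Ebf1 and Ms4a1 lay between 2.23 and 2.55 on all arrays, and Pax5 had 4.26 on each of the 4. The summed log2 level of the list was 73.4, 82.4, 72.4 and 72.6, with 13 of the 20 markers below the filter level at 0.02 Gy and 16 at 0 Gy. In the list of MHC class II genes, which B cells share with other antigen-presenting cells, 2 of 10 were lower and 1 higher (median -0.42, or 0.032 against the mean of the other 3 arrays). H2-DMb2 had 7.83, 5.80, 5.06 and 2.95, and its value at 0.02 Gy lay above the mean of the other 3 arrays.

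Genes of cell division were lower at 0.02 Gy, with modest sizes and a common direction. Of 85 genes in lists of mitotic kinases, kinetochore and spindle checkpoint, and spindle, cytokinesis and condensin proteins, 28 (32.9%) were at least 1.5-fold lower and 0 higher, against 6.20% and 6.44% of kept genes. The median difference was -0.43, 77 of the 85 lay below 0, and the 0.02 Gy array was the lowest of the 4 for 70 (82.4%), against 22.6% of kept genes. All 85 passed the filter. At 0.1 and 0.5 Gy, set against the same 0 Gy array, the medians of these genes were 0.00 and -0.04.

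Among the mitotic kinases, which drive entry into and passage through mitosis, 8 of 19 were lower (median -0.52). Plk1, which acts at centrosomes and kinetochores, had 8.24, 7.12, 8.12 and 8.09, which is 2.17-fold lower at 0.02 than at 0 Gy. Cdk1, the kinase that triggers mitosis, had 8.90, 8.18, 9.31 and 9.09. Aurka, which matures the spindle poles, had 7.51, 6.84, 7.68 and 7.39, and Bora, which helps it activate Plk1, had 8.27, 7.30, 8.11 and 7.86. For each of these the 0.02 Gy array stood below the other 3.

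In the kinetochore and checkpoint list 7 of 32 were lower (median -0.39). Cdc20, which activates the anaphase-promoting complex, had 8.22, 7.26, 7.84 and 7.83, Ttk, a spindle checkpoint kinase, had 7.52, 6.60, 7.30 and 7.30, and Ube2c, the ubiquitin-conjugating enzyme of that complex, had 10.43, 9.76, 10.38 and 10.31. Of 34 spindle, cytokinesis and condensin genes 13 were lower (median -0.46). Aspm, a spindle pole protein, had 6.67, 5.18, 6.26 and 6.06, a 2.81-fold difference between 0 and 0.02 Gy. Ckap2l, also of the spindle, had 6.64, 5.46, 6.75 and 6.42, and Ect2, which sets the cleavage furrow, had 7.18, 6.18, 7.05 and 6.49. Each was lowest at 0.02 Gy. Smaller differences were seen for Top2a, the topoisomerase that untangles sister chromatids, with 9.93, 9.30, 9.97 and 9.93, and for the proliferation marker Mki67, with 9.47, 9.22, 9.51 and 9.34.

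DNA replication genes were lower in the same way. At least 1.5-fold lower were 16 of 61, with 0 as far above 0 Gy. The median was -0.32, and the 0.02 Gy array was the lowest of the 4 for 47 (77.0%). In the list of polymerases, clamp, single-strand binding and nucleotide supply, all 31 genes lay below 0. Rpa3, a subunit of the single-strand binding complex, had 8.48, 7.35, 7.88 and 7.80, Lig1, which seals Okazaki fragments, had 9.07, 8.33, 8.92 and 8.87, and Tyms, which makes thymidylate, had 8.34, 7.71, 8.34 and 8.33. The sliding clamp Pcna differed less, with 11.60, 11.38, 11.60 and 11.66. In the licensing list 6 of 30 were lower, among them Mcm10 with 6.15, 5.16, 6.84 and 6.15, Wdhd1, which ties the helicase to a polymerase, with 6.94, 5.70, 6.89 and 6.82, and the origin recognition subunit Orc6 with 8.06, 7.11, 7.77 and 7.77.

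Cyclins and repair genes differed less than these, and histone genes about as much. Of 24 cyclins, cyclin-dependent kinases and E2F factors, 1 was at least 1.5-fold lower and 0 higher (median -0.10). The lower gene was Ccnd1, cyclin D1, with 8.45, 7.76, 7.16 and 8.14. Of 30 replication-dependent histone genes 6 were lower and 1 higher (median -0.31). H2ac20 had 10.93, 9.88, 10.14 and 10.31, and H2ac11, the 1 higher, had 7.22, 7.98, 7.66 and 7.30. Histone genes are near copies of each other, so single members are uncertain. Of 28 double-strand break repair genes 1 was lower and 0 higher (median -0.02). It was Chek1, the kinase that answers stalled replication, with 6.84, 5.82, 7.34 and 7.06.

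**Figure D3:**
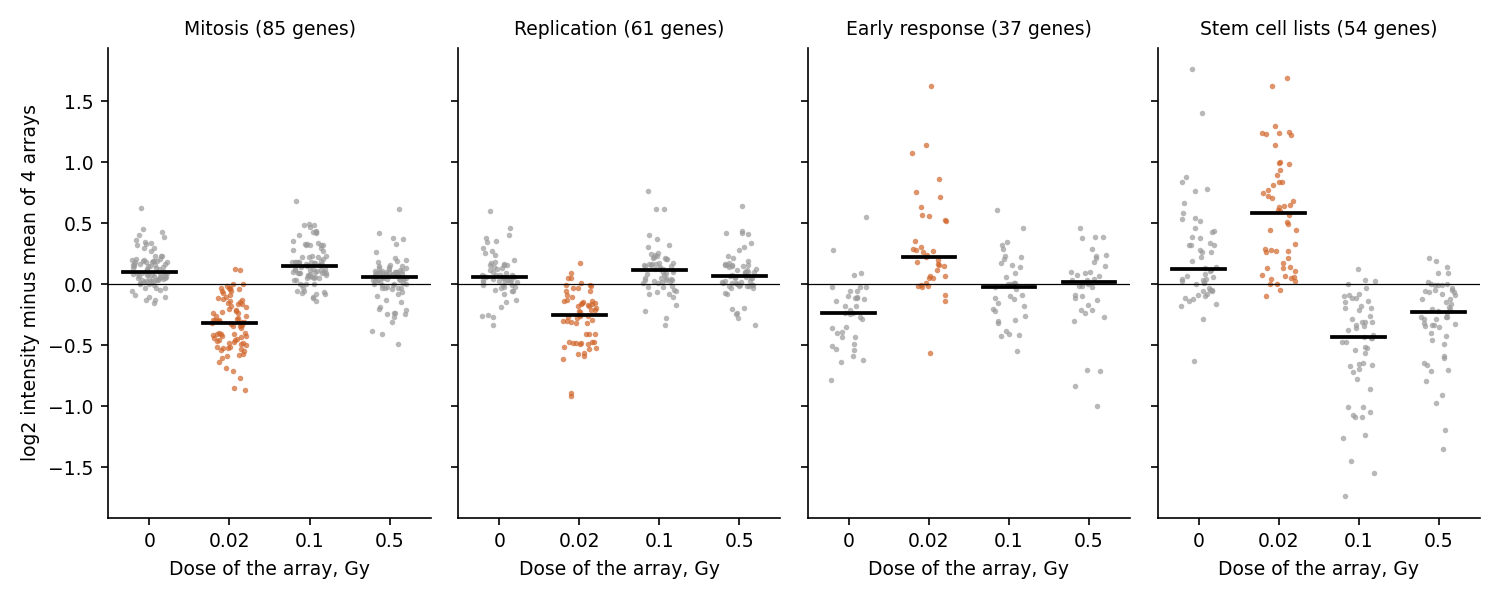
Log2 intensity of each gene minus its own mean over the 4 arrays, by dose in Gy, with 1 point per gene and a bar at the median of the group. At 0.02 Gy the bars lie at -0.31 for mitosis, -0.25 for replication, 0.23 for early response and 0.58 for the stem cell signature and old stem cell genes.

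Promoters of the division genes were read for the letters that known regulators of these genes bind, since so many of these genes differed in the same direction. At genes of the late cell cycle, the DREAM complex binds the CHR element, letters TTTGAA, and NF-Y binds CCAAT boxes. E2F factors bind TTTCGCGC or TTTGGCGC at genes of replication. Both strands were searched in the window from 250 bases before to 50 after the start site, taking the first listed start of each gene, in sequences from RefSeq on GRCm38.p6. Windows were found for 71 of the 85 mitosis genes, 51 of the 61 replication genes and 17452 of the 23185 named genes. TTTGAA occurred in 44 mitosis windows (62.0%), 8 replication windows (15.7%) and 15.8% of all windows. CCAAT occurred in 49 (69.0%), 29 (56.9%) and 38.8%, and an E2F sequence in 6 (8.45%), 11 (21.6%) and 1.11%. A match describes letters in a window and shows neither binding nor a cause.

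The 120 bases before the start sites of 3 mitosis genes are printed to show how these letters lie, with CCAAT (or ATTGG on the other strand) and TTTGAA (or TTCAAA) in capitals. They are chr4:118437344-118437463 for Cdc20, chr2:129297213-129297332 for Ckap2l and chr10:69352913-69353032 for Cdk1, all on the minus strand of GRCm38.p6, 5′ to 3′ in the direction of transcription.
Cdc20: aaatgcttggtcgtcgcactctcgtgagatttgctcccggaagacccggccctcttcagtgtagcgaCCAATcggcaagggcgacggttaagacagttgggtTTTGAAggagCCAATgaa
Ckap2l: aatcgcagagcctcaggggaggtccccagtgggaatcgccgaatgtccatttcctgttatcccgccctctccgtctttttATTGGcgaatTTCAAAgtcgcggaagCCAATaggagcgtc
Cdk1: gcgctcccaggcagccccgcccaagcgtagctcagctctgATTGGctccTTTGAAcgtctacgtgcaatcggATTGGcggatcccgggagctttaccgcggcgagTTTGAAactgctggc
Each of the 3 stretches holds both kinds of letters.

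Early response genes, which are switched on within minutes of a stimulus and encode mostly transcription factors, were higher at 0.02 Gy. Of 37 in both lists, 14 (37.8%) were at least 1.5-fold higher and 1 lower, and 33 lay above 0. The median difference was 0.50, and the 0.02 Gy array was the highest of the 4 for 20 (54.1%), against 17.7% of all named genes. Their medians against 0 Gy were 0.07 at 0.1 Gy and 0.15 at 0.5 Gy. The 0 Gy array was itself low for these genes: its median level lay 0.23 below the genes' own means, while that at 0.02 Gy lay 0.23 above.

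Zinc-finger and nuclear receptor factors led the larger list, in which 10 of 24 were higher and 0 lower (median 0.54). Egr2 had 4.46, 6.30, 4.25 and 3.68, and Egr3 had 5.04, 6.23, 5.04 and 4.32. Egr1 differed less, with 11.32, 11.65, 11.22 and 11.50. Nr4a1, an orphan nuclear receptor linked to stem cell quiescence, had 9.65, 10.72, 9.97 and 10.42. Klf4 had 6.28, 7.29, 6.36 and 7.15. Egr2 and Egr3 were highest at 0.02 Gy and low at 0.5 Gy, while Nr4a1 and Klf4 at 0.5 Gy lay nearly as high. Btg2, an antiproliferative gene and p53 target, had 7.96, 9.72, 8.03 and 8.61, and Ier3 had 9.18, 10.22, 9.20 and 9.25.

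Of 13 genes of the AP-1 family, dimeric factors of FOS, JUN and MAF proteins, 4 were higher and 1 lower (median 0.42). Fosl2 had 7.03, 8.26, 7.10 and 7.19, Junb had 8.96, 9.94, 9.0 and 9.32, and Fosb had 7.85, 8.70, 9.25 and 8.74. The lower gene was Mafg, with 7.18, 6.07, 6.64 and 6.64. Fosl2 and Junb were highest at 0.02 Gy, and Fosb was higher still at 0.1 and 0.5 Gy. Of 13 MAP kinase phosphatases and Sprouty proteins, which dampen the kinases that induce these factors, 2 were higher and 1 lower (median 0.07). Dusp5 had 5.41, 6.98, 5.86 and 6.61, and Spry4 had 5.56, 4.65, 4.71 and 4.71. Of 18 genes of the p38 pathway 2 were higher and 0 lower, and Mapk14, which encodes p38α, had 7.67, 7.37, 7.85 and 7.58.

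Promoters of the early genes were searched for the letters of the cyclic AMP response element, TGACGTCA, its shorter core TGACG, which the full element contains, the AP-1 site (TGACTCA or TGAGTCA), the EGR site GCGTGGGCG and the STAT spacing TTCNNNGAA. Windows were found for 30 of the 37 genes. TGACG occurred in 17 of them (56.7%), against 24.4% of all windows, 38% of mitosis windows and 41.2% of replication windows. The full element occurred in 2 (6.67%), against 2.38% of all windows, 7.04% of mitosis windows and 3.92% of replication windows. TTCNNNGAA occurred in 3, against 7.99% of all windows, and the AP-1 and EGR letters in 0, against 4.70% and 0.882% of all windows. Other genes described here, such as Junb, Fosb, Klf4 and Mafg, also carry TGACG. Stretches of 120 bases are printed for 3 examples: Btg2 (chr1:134079236-134079355, minus strand) with the full element, Nr4a1 (chr15:101266726-101266845, plus strand) with the core alone, read as CGTCA, and Socs3 (chr11:117969447-117969566, minus strand), whose values follow, with the STAT spacing, each in capitals. The Nr4a1 stretch ends at the start site and the others end 80 bases before it.
Btg2: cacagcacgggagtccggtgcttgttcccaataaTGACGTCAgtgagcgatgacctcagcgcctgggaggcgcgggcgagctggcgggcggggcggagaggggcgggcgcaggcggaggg
Nr4a1: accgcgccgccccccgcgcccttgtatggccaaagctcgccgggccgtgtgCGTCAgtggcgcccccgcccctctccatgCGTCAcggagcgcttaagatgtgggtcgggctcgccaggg
Socs3: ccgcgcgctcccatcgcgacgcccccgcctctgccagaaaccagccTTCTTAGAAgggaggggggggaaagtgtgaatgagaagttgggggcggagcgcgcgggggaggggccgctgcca

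Genes of cytokine signalling through STAT proteins included several higher members, led by the feedback inhibitor Socs3. Of 24 measured, 7 were at least 1.5-fold higher and 0 lower (median 0.24). Socs3, which blocks signalling from gp130 and other receptors, had 4.50, 7.53, 5.49 and 6.72, an 8.17-fold difference between 0 and 0.02 Gy. With immunoglobulin, clone-named and some other gene classes left out, it had the largest difference of kept genes with both arrays above the filter level. Bcl3, an atypical IκB protein, had 6.92, 8.69, 6.92 and 6.13, Bcl6, a transcriptional repressor, had 3.85, 6.41, 4.69 and 4.69, and the kinase Pim1 had 7.22, 8.29, 7.73 and 7.60. Stat3 itself had 8.17, 8.74, 7.92 and 8.11, and Socs2 had 5.25, 5.80, 5.22 and 4.96. All of these were highest at 0.02 Gy. Osm, a gp130 ligand, was not: it had 4.14, 5.34, 5.85 and 5.55.

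Of 29 cytokine receptor genes 4 were higher and 0 lower (median 0.18). Il4ra, of the interleukin 4 receptor, had 6.50, 7.25, 5.98 and 6.03, and Csf2rb, the β chain shared by several receptors, had 5.68, 6.38, 5.32 and 5.13. Of 24 genes of the NF-κB pathway and its inflammatory targets 5 were higher and 1, the subunit gene Rel, lower. Nfkbiz had 5.99, 7.33, 6.60 and 6.65, Cxcl2, a neutrophil chemokine, had 3.67, 5.52, 5.0 and 4.63, and Tnfaip3, which encodes the feedback inhibitor A20, had 6.16, 7.21, 7.57 and 6.96. Here the 0.1 and 0.5 Gy arrays also lay above 0 Gy.

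Targets of p53 did not share a single direction, although Cdkn1a was among the higher genes. Of 25 measured, 4 were at least 1.5-fold higher and 0 lower, while 14 lay above 0 and 9 below. The 0.02 Gy array was the highest of the 4 for 12 of them, against 17.7% of all named genes. The median was 0.02, or 0.23 over the 19 that passed the filter. Cdkn1a, which encodes p21, had 7.87, 9.68, 8.82 and 9.52, so it was 3.50-fold higher at 0.02 than at 0 Gy and higher on each irradiated array. Plk3, a stress kinase, had 4.34, 5.78, 5.01 and 5.17. Mdm2, the ligase that limits p53 and a standard target, had 7.0, 6.87, 7.05 and 7.0, and Sesn2 had 4.50, 3.95, 4.50 and 4.85. Of 8 cyclin-dependent kinase inhibitors Cdkn1a was the only 1 past 1.5-fold: Cdkn1b, p27, had 7.24, 7.24, 7.24 and 7.38, and Cdkn1c, p57, had 4.78, 5.30, 4.32 and 4.88. Trp53 was not analysed here.

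**Figure D4:**
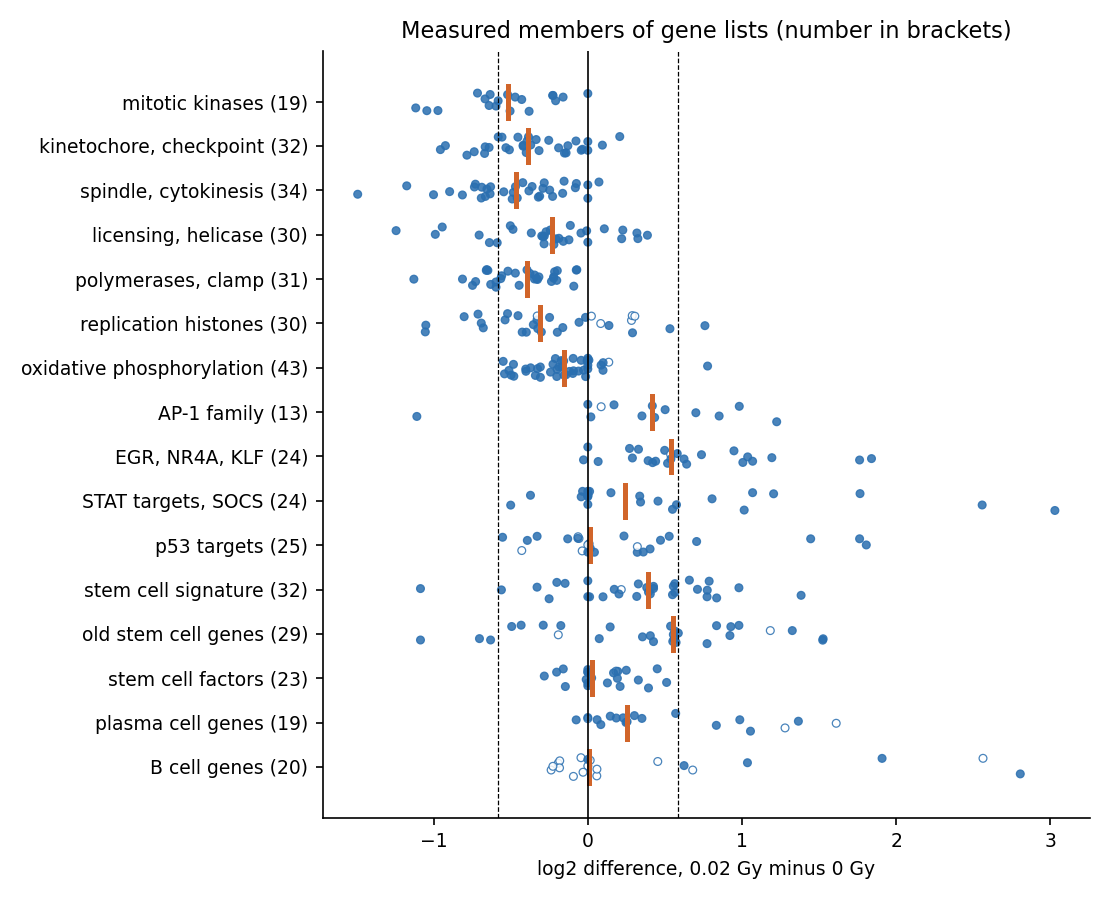
Log2 difference, 0.02 Gy minus 0 Gy, of every measured gene in selected lists, with 1 point per gene, open where it did not pass the filter, and a bar at each list's median. Dashed lines mark 1.5-fold. The mitotic kinases lie almost all below 0 (median -0.52), and the EGR, NR4A and KLF list lies almost all above it (median 0.54).

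Genes that mark long-term stem cells were higher at 0.02 Gy. Of 32 in the stem cell signature 8 were at least 1.5-fold higher and 1 lower (median 0.39), and the 0.02 Gy array was the highest of the 4 for 23. Procr, the endothelial protein C receptor, had 6.79, 8.17, 7.09 and 7.64. Fgd5 had 5.40, 6.24, 4.69 and 5.01, and Esam, an adhesion molecule of stem cells, had 6.71, 7.49, 6.43 and 6.52. Hoxb5 had 6.16, 6.87, 5.95 and 6.06. These and Slamf1, given above, were highest at 0.02 Gy. The lower gene was Neo1, a netrin receptor, with 7.47, 6.38, 4.61 and 4.35, and its 0.02 Gy value lay above the mean of the other 3 arrays.

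Transcription factors that hold stem cell identity differed little. Of 23 in the core list 0 were 1.5-fold higher and 0 lower (median 0.02). Hlf, counted with the signature, had 9.63, 10.02, 9.66 and 9.66, and Mecom had 7.87, 8.20, 7.66 and 7.72. Among 22 regulators of quiescence 2 were higher and 2 lower (median 0.06). Hes1, a Notch target, had 6.42, 7.79, 7.58 and 8.0, and Bmi1, a polycomb gene needed for self-renewal, had 6.55, 5.78, 6.32 and 5.59. For both, the 0.02 Gy value lay within the range of the other irradiated arrays and 0 Gy.

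Genes known to accumulate in stem cells of old mice were higher than at 0 Gy and higher still against 0.1 and 0.5 Gy. Of 29 measured, 10 were at least 1.5-fold higher and 3 lower than at 0 Gy (median 0.55), and the 0.02 Gy array was the highest of the 4 for 21. Alcam, an adhesion molecule, had 6.47, 7.99, 6.08 and 6.47, Clca3a1 had 8.45, 9.97, 7.26 and 7.70, and Nupr1, a stress-induced nuclear protein, had 8.59, 9.91, 7.97 and 8.21. Jam2 had 6.62, 7.54, 4.30 and 4.94. Selp, which encodes P-selectin, had 8.12, 8.69, 6.97 and 6.99, and Vwf, von Willebrand factor, had 8.58, 8.98, 7.14 and 7.28. The last 3 stood high on the 0 and 0.02 Gy arrays and at least 1 log2 unit lower on the others. Of this list 7 genes are also in the signature. Over the 54 genes of both, the median difference was 0.40 against 0 Gy and 0.78 against the mean of the other 3 arrays.

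Genes of signalling by TGF-β and BMP, which holds stem cells in quiescence, included several higher members. Of 21 measured 5 were higher and 0 lower (median 0.18). Tgfbi, a secreted matrix protein, had 6.24, 8.67, 5.90 and 6.15, and Id1, an inhibitor of basic helix-loop-helix factors, had 4.68, 6.46, 4.67 and 5.47. The inhibitory Smad7 had 7.41, 8.29, 7.94 and 8.31. Id3 had 4.48, 5.74, 7.04 and 6.74, so its 0.02 Gy value was above 0 Gy and below the other irradiated arrays.

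Markers of myeloid lineages included a few higher members. Of 22 neutrophil markers 4 were at least 1.5-fold higher (Mpo, Prtn3, S100a9 and Prg2) and 1 lower. Against 0 Gy their median was 0.24, with 13 above 0 and 7 below. Against the mean of the other 3 arrays the median of these markers was -0.16. Their summed log2 level was 86.7, 93.1, 105.7 and 92.4. Mpo, myeloperoxidase, had 4.78, 6.44, 8.75 and 7.07, and its 0.02 Gy value lay below the mean of the other 3 arrays. S100a9 had 5.05, 6.26, 7.89 and 4.79 while its partner S100a8 had 3.89, 2.81, 6.54 and 4.88. Of 14 basophil, mast cell and eosinophil markers 2 were higher and 0 lower (median 0.11). Prg2 had 6.83, 8.58, 5.36 and 3.73, and Epx had 3.01, 4.44, 3.12 and 3.12. Both encode eosinophil granule proteins, and Prg2 is counted in both lists. Of 21 monocyte and dendritic markers 2 were higher and 0 lower (median 0.00). Ly6c2 had 6.28, 8.18, 6.83 and 4.72, and Cd68 had 6.10, 7.78, 4.02 and 6.18. The summed level of that list was 83.9, 87.4, 83.1 and 82.0.

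Erythroid, megakaryocyte and T or NK markers had medians of 0.00, -0.13 and 0.01. Of 19 erythroid markers 1 was higher and 2 lower, while 9 lay above 0 and 8 below. Of 21 megakaryocyte markers 1 was higher and 3 lower, and of 20 T or NK markers 2 were higher and 1 lower. The higher erythroid marker, the globin gene Hbb-bs, had 2.12, 2.84, 2.76 and 4.19. Car1, an erythroid carbonic anhydrase, had 8.42, 7.59, 9.77 and 10.34, and the factor Gata1 had 7.72, 7.33, 8.10 and 8.84, so both were lowest at 0.02 Gy. Summed over 19 erythroid markers the log2 level was 112.2, 110.7, 120.4 and 125.2. Of 25 endothelial and stromal genes 0 were higher and 4 lower (median -0.10), with 4 above 0 and 15 below. Timp3, a metalloproteinase inhibitor, had 9.30, 6.55, 9.16 and 8.10, and Sox18, an endothelial factor, had 6.35, 3.91, 4.38 and 4.38. Cxcl12, the niche chemokine, had 5.36, 4.53, 4.53 and 4.54. Timp3 was high on the other 3 arrays, while Sox18 and Cxcl12 were high at 0 Gy alone. The part of other cells in the differences above was not tested.

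Beyond the lists, the 15 largest upward differences were taken with both arrays at or above the filter level, immunoglobulin and unnamed genes left out. The 0.02 Gy array was the highest of the 4 in 15 of 15, against 21.3% of kept genes. That share is partly fixed by choosing genes with a high 0.02 Gy value. After Socs3 came Vldlr, a lipoprotein receptor, with 4.81, 7.37, 5.33 and 5.22, then Tgfbi, and Ctsw, a cathepsin of cytotoxic lymphocytes, with 5.48, 7.90, 6.43 and 6.29. Cd53, a leukocyte tetraspanin, had 7.12, 9.35, 5.64 and 7.03, and Cd52 had 5.97, 8.29, 7.35 and 6.80. Slpi, a secreted inhibitor of leukocyte proteases, had 9.49, 11.56, 6.48 and 7.03. Slpi and Cd53 thus also differed widely between the other arrays. P2ry10, a lysophospholipid receptor of lymphocytes, had 4.28, 6.41, 4.45 and 4.68, and Lsr, the lipolysis-stimulated lipoprotein receptor, had 4.62, 7.01, 4.58 and 4.32. With the 0 Gy value below the filter level, the largest was Tfb2m, a mitochondrial transcription factor, with 2.90, 6.98, 3.96 and 4.99, and the size of that difference is uncertain.

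The 15 largest downward differences by the same rule were lowest at 0.02 Gy in 8 of 15, so for the other 7 another irradiated array lay lower. Over kept genes that array was the lowest for 22.6%, and the share here is again partly fixed by the choice of genes. Nipa1, a magnesium transporter, had 7.55, 4.79, 4.88 and 4.30, and Slc17a8, a vesicular glutamate transporter, had 6.60, 4.25, 4.41 and 4.30. Both were high at 0 Gy alone. Cx3cl1, the chemokine fractalkine, had 6.71, 4.66, 5.05 and 5.08, and Ccl19, a chemokine of lymphoid stroma, had 6.78, 5.18, 4.55 and 4.57. The GTPase Gimap4, a lymphocyte gene, had 7.81, 5.92, 4.05 and 4.69. Its value at 0.02 Gy lay below 0 Gy but above the mean of the other 3 arrays. Sf3b4, a splicing factor, had 7.29, 5.65, 6.40 and 7.72, and Unc119b, a lipid-binding trafficking protein, had 7.07, 5.13, 5.94 and 6.32. These 2 were lowest at 0.02 Gy, as Timp3 was. The lowest gene with its 0.02 Gy value below the filter level was Zfp991, a zinc-finger gene, with 6.78, 3.99, 4.30 and 5.98.

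**Figure D5:**
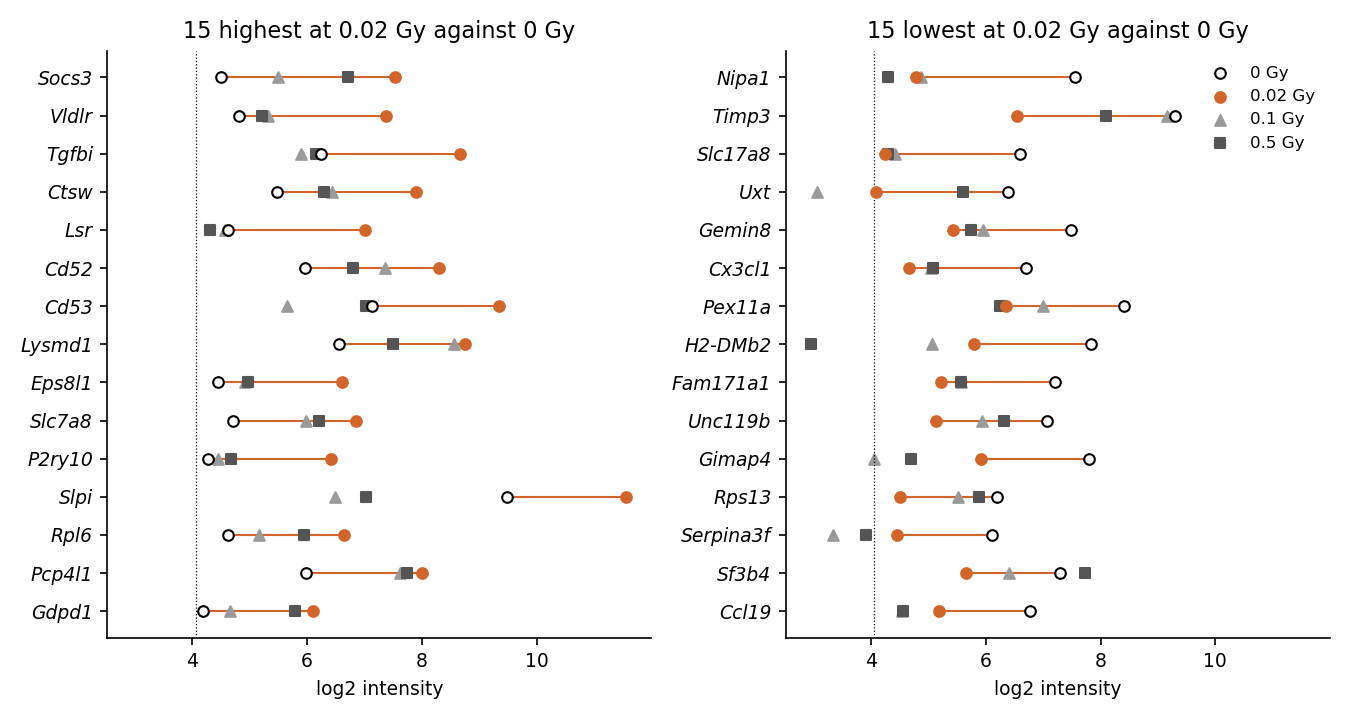
Log2 intensities on each of the 4 arrays for the 15 genes with the largest upward and the 15 with the largest downward difference between 0.02 and 0 Gy, both arrays at or above the filter level of 4.06. Each symbol is 1 array, a line joins 0 and 0.02 Gy, and the dotted line marks the filter level. In the upward panel the 0.02 Gy point is the highest for 15 of 15 genes, and in the downward panel it is the lowest for 8 of 15. Both counts are partly fixed by choosing genes on this difference.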

How the data were processed

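Each dose had 1 array. The authors deposited log2 intensities, with a single value for each probe set of an Entrez gene. The base is not stated, and 2 was inferred from the values, which run from 1.22 to 13.0. The submitters' processing notes name Partek, with no role or version. How background was corrected, values were normalized and which genome build was used is not given in the sources used here. Arrays carry no read depth, so their number limits the precision.

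Values were used as deposited. Of 25206 probe sets, 2021 with no symbol or with several symbols were left out. Counts, medians and log2 differences were computed with Python 3.11.15 (pandas 2.3.3), and limma 3.58.1 in R 4.3.3 gave the alternative normalizations. No gene was tested. The scripts were checked on simulated data. The comparison, its genes and the 43 gene lists were chosen with earlier results of these data known. Of 1035 listed symbols, 94 had no probe set under that symbol alone and are not analysed here, and 5 were found under an older name. Lists count all measured members.

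Genes named are the 15 highest and 15 lowest kept genes with both arrays at or above the filter level, the 5 each way with 1 array below it, up to 5 members per list by absolute difference, all sort markers, and, for immunoglobulins, the 5 highest, the 5 lowest and the constant regions. Clone-named and predicted genes, pseudogenes, olfactory, vomeronasal and taste receptors, small RNAs, ribosomal RNAs and antigen receptor segments were left out of the first 2 groups. The text gives a part of them. List members named beyond the 5 (such as Mki67, Pcna, Mdm2, Mecom, Ebf1 and Jam2) were added after their values were seen, as textbook members or as examples. Alternatives were other normalizations (quantile, median centring, cyclic loess), other filters, thresholds of 1.5-fold and 3-fold, and a control made from the mean of the 3 arrays at other doses.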

Additional observations from a re-analysis of the deposited data

How the results depend on the processing

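The counts at 2-fold, with and without immunoglobulin genes, stayed within 1.5 times of the reported ones when the arrays were quantile normalized, centred on their medians or fitted with cyclic loess, without a filter, and with a filter on the mean of the 0 and 0.02 Gy arrays or on each of them. A stricter filter, which keeps fewer genes, gave 139 higher and 83 lower, and 103 and 81 without immunoglobulin genes. A threshold of 1.5-fold gave 747 higher and 719 lower, and 671 and 710 without them, and a threshold of 3-fold gave 117 and 40, and 56 and 35. Against the mean of the 3 other arrays the lower count was 100, and 96 without immunoglobulin genes. List medians were compared here over members that passed the filter, so they can differ from those above, which cover all measured members. Their sign changes were counted only where the median against 0 Gy was at least 0.25 log2 units from 0. Of the 43 lists, 4 changed sign in this way with that control: the excluded sort markers (-0.13, from Flt3 alone), MHC class II (0.032), neutrophil markers (-0.11), and basophil, mast cell and eosinophil markers (-0.049, from 3 genes, and 0.0080 over all 14 measured). Some medians nearer 0 also changed sign, such as that of interferon-stimulated genes (-0.17 against 0 Gy, 0.016 with that control). That control moved a further 14 list medians by over 0.1 log2 units. For single genes, sign changes were counted only where the difference from 0 Gy was at least 1 log2 unit. Among 248 genes it turned the sign for 6 of this kind: Gimap4 (0.41), H2-DMb2 (0.52), Id3 (-0.35), Mpo (-0.42), Neo1 (0.91) and Serpina3f (0.0037), and moved a further 78 by over 0.5 log2 units. Some genes with smaller differences, such as Irgm2, also changed sign. The cause was not tested. Under the 3 normalizations all 248 genes kept their difference within 0.5 log2 units, while quantile normalization moved 1 list median and cyclic loess 2. The stricter filter moved 9 list medians and counting all measured members 11. No paired analysis was possible because each dose has 1 array. Signal near background limits genes below the filter level, whose differences have an uncertain size.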

Other observations

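Genes of the mitochondrial respiratory chain were slightly lower at 0.02 Gy, with a median log2 difference of -0.16 over 43 measured subunits. Of these, 0 were at least 1.5-fold lower and 1 was higher, and the 0.02 Gy array was the lowest of the 4 for 26, against 22.6% of all named genes. Cyc1, cytochrome c1 of complex III, had 8.69, 8.14, 8.65 and 8.73 (log2 intensities, in order of dose). The higher gene was Ndufs3, a complex I subunit, with 4.23, 5.0, 4.18 and 4.46. Of 34 genes of mitochondrial transcription and translation 5 were lower and 1 higher (median -0.11). Mrps2, a protein of the small mitochondrial ribosomal subunit, had 8.68, 7.77, 8.13 and 8.59, and Mrpl15, of the large subunit, had 7.74, 6.98, 7.76 and 7.48. Of 23 genes of MYC and ribosome biogenesis 0 were 1.5-fold higher and 0 lower (median -0.10).

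Probe sets for cytosolic ribosomal proteins spread in both directions. Of 42 measured 5 were at least 1.5-fold higher and 11 lower (median -0.19). Rps16 had 5.28, 3.73, 4.74 and 4.28, Rps13 had 6.20, 4.51, 5.52 and 5.89, Rps15 had 3.75, 5.23, 4.67 and 5.72, and Rpl6 had 4.62, 6.64, 5.16 and 5.94. These genes have many near-identical pseudogenes, so single values are uncertain. Of 32 interferon-stimulated genes 0 were higher and 1 lower (median -0.15, or 0.024 against the mean of the other 3 arrays). Irgm2, an interferon-induced GTPase, was the lower gene, with 8.36, 7.57, 6.97 and 7.12. Its 0.02 Gy value lay above the mean of the other 3 arrays. Of 24 adhesion, homing and niche receptors 4 were higher and 1 lower (median 0.00). S1pr1, the sphingosine 1-phosphate receptor that guides cells into blood, had 7.03, 8.04, 7.29 and 7.51, and Itgb2, the leukocyte integrin β2, had 7.29, 6.61, 6.72 and 6.73.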
